A study of Mus musculus with 2 samples.

Results

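Hyaluronan, versican and cardiac jelly genes were described in the embryonic mouse heart as a set of 10 genes, taken by symbol: Has1, Has2, Has3, Ugdh, Hapln1, Vcan, Cd44, Hyal1, Hyal2 and Cemip. All 10 were found among the 43346 mouse genes of the gene tables. The tissue was whole heart of B6NCrl embryos, 11.5 days old, healthy and of mixed sex, and neither a genotype nor a treatment is named for it. There was 1 group with 2 libraries, called replicate 1 and replicate 2 as in the labels, each from a pooled sample of its own under 1 shared donor identifier. The pool of replicate 1 held 109 embryos, and no number is given for replicate 2. Replicate 1 had 37617442 estimated counts in all and replicate 2 had 27642765. Nothing in the labels says that the pools came from separate litters, so the spread between the libraries may be partly technical.

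Cardiac jelly is the hydrated matrix between the muscle layer and the endocardium of the early heart, and it fills the endocardial cushions from which valves and septa form. Its main polymer, hyaluronan, is made at the plasma membrane by the hyaluronan synthases from UDP-glucuronic acid and UDP-N-acetylglucosamine, and it is cut by hyaluronidases and by the CEMIP proteins. Versican, a large proteoglycan with chondroitin sulfate chains, binds hyaluronan through a domain at its amino end, link proteins stabilise that bond, and CD44 is a cell surface receptor for hyaluronan. Mouse embryos without Has2 or Vcan lack normal cushions and die in mid-gestation, which is why these genes are central to studies of heart matrix.

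The versican gene is spliced into forms that differ in exons 7 and 8, which encode the regions that carry chondroitin sulfate, so the exon junctions are the sequences by which reads can tell the forms apart. Exon 7 is 2880 bases long and codes for the GAG-alpha region, and exon 8 is 5217 bases long and codes for GAG-beta. The form V0 holds both, V1 holds exon 8 alone, V2 holds exon 7 alone and V3 holds neither. Each window below is in the transcript's sense, with 30 bases of the upstream exon in lower case and 30 of the downstream exon in capitals, from GENCODE M21 transcripts on mm10.
Vcan exon 6 to exon 7 (V0 and V2): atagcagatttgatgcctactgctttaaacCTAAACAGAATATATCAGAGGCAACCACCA
Vcan exon 6 to exon 8 (V1): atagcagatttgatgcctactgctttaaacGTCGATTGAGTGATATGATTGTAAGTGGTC
Vcan exon 6 to exon 9 (V3): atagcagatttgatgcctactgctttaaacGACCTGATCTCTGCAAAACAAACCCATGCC
Vcan exon 7 to exon 8 (V0): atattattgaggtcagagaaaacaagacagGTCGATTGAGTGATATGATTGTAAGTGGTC
Vcan exon 7 to exon 9 (V2): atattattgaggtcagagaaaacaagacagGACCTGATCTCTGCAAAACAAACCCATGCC
The gene lies on the minus strand of chromosome 13. Exon 6 ends at position 89712205, exon 7 runs from 89705797 down to 89702918, exon 8 starts at 89693501 and exon 9 at 89685192. Exons 6, 7 and 8 thus each have more than 1 partner, and the same lower case or capital run returns in several windows.

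Cd44 is shown in the same way, because its forms differ in a block of 10 variable exons, exons 6 to 15 of the longest model, between constant exons 5 and 16. The standard form joins exon 5 to exon 16. The model Cd44-207 joins exon 5 to exon 10 and exon 15 to exon 16. Exon 15 is held by all 7 models with variable exons, so its junction with exon 16, printed from Cd44-207, is not particular to that model.
Cd44 exon 5 to exon 16 (standard form): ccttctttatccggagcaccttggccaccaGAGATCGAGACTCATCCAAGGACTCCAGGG
Cd44 exon 5 to exon 10 (Cd44-207): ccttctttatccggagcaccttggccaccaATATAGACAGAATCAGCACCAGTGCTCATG
Cd44 exon 15 to exon 16 (Cd44-207): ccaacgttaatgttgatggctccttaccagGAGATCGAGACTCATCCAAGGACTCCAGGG
These exons lie on the minus strand of chromosome 2, with exon 5 ending at 102853015, exon 10 starting at 102842377, exon 15 ending at 102831330 and exon 16 starting at 102828610.

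Levels are in TPM, a length-corrected transcript abundance scaled to a fixed sum in each library, and they are given as mean ± SD over both libraries (n = 2). A gene was counted as detected at 1 TPM or more in both. By that rule 7 of the 10 members were detected, beside 30.8% of all mouse genes and 56.4% of protein-coding genes. The median of all 10 members was 11.1 TPM, beside 0.05 over all mouse genes and 2.96 over all protein-coding genes. Over the 12118 detected protein-coding genes alone the median was 15.99. With 2 libraries of 1 group an exact sign-flip test cannot go below p = 0.5, so levels carry no test. In whole tissue, fewer cells of a type and less RNA per cell cannot be told apart.

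The members fell into an abundant group and a scarce one. Vcan, Hyal2, Ugdh and Hapln1 lay between 52.3 and 132 TPM in every library, and Cd44 followed at 18.2 and 21.3. Hyal1, Has2, Cemip, Has1 and Has3 lay between 0.06 and 2.46. Of neighbours in this order, Ugdh and Hapln1 overlapped in their range over the libraries, and so did Cemip and Has1. The other neighbours did not overlap, although Hyal2 and Ugdh came close, the lowest value of Hyal2 being 77.0 and the highest of Ugdh 75.6. As counts with no length correction, Hapln1 (7392 and 7330) stood above Ugdh (4473 and 3405), and Ugdh above Hyal2 (3919 and 3117). Has2 (246 and 142 counts) likewise stood above Hyal1 (179 and 114). The plot of TPM by gene shows the gap between Cd44 and Hyal1.

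**Figure D1:**
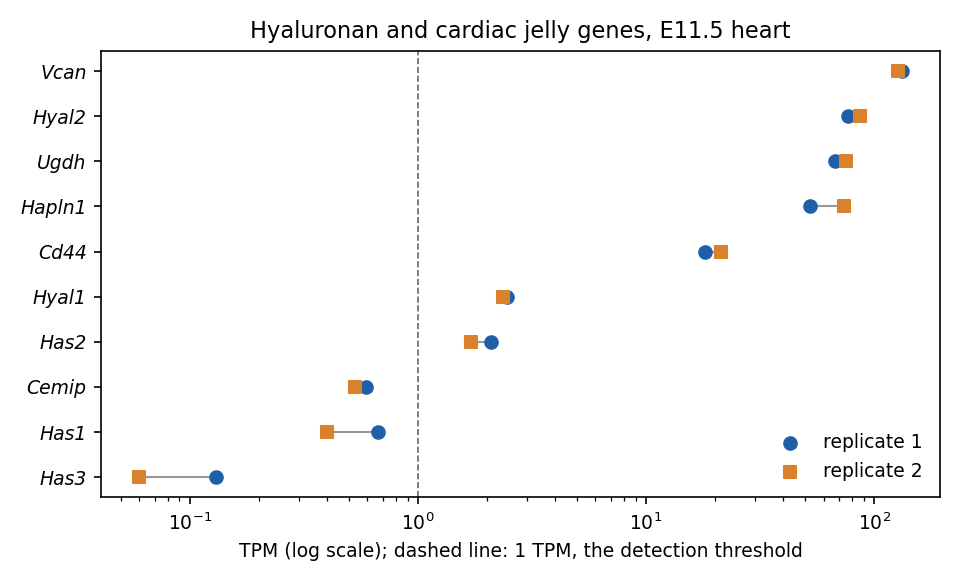
TPM (log scale) of the 10 genes in replicate 1 (circles) and replicate 2 (squares), ordered by mean, with a grey line joining the values of a gene. Vcan is highest at 132 and 127 TPM, Has3 lowest at 0.13 and 0.06, and only 3 genes lie left of the 1 TPM threshold (dashed).

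Of the hyaluronan synthases, Has2 was the most abundant in both libraries. Has2, the synthase needed for cushion formation (ENSMUSG00000022367.7, chromosome 15, 56665627 to 56694539, minus strand), had 2.08 TPM in replicate 1 and 1.70 in replicate 2, from 246 and 142 counts, which is 1.89 ± 0.269. Has1, another isoenzyme (ENSMUSG00000003665.6, chromosome 17, 17843323 to 17855205), had 0.67 and 0.40 TPM from 38 and 16 counts. Has3, the third isoenzyme (ENSMUSG00000031910.10, chromosome 8, 106870242 to 106884566), had 0.13 and 0.06 TPM from 21 and 7 counts. In both libraries the order was Has2, Has1, Has3, with no overlap between the genes.

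Has2 held 75.5% ± 4.58 of the summed TPM of the 3 synthases, Has1 20.9% ± 3.36 and Has3 3.65% ± 1.23. The summed level was small, 2.88 TPM in replicate 1 and 2.16 in replicate 2. Has2 exceeded Has1 3.63-fold in TPM, with log2 ratios of 1.63 and 2.09 in the libraries (mean 1.86 ± 0.32). It exceeded Has3 21.3-fold, with log2 ratios of 4.0 and 4.82 (mean 4.41 ± 0.583). Both differences were larger than the spread between the libraries, but their size depended on the scale. The mean log2 ratio of Has2 to Has1 was 0.92 with 1 added to each TPM, 2.92 as counts and 3.01 as counts per annotated exon length. That of Has2 to Has3 was 1.40 with 1 added and 3.43 with posterior mean TPM. Has2 stood above only 5.67% of detected protein-coding genes.

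Other genes share exon sequence with the synthases, and no strand setting is given, so how reads in the shared bases were assigned is not stated. The authors' model gave the single Has2 transcript whole counts, 246 and 142, with a posterior standard deviation of 0 in both libraries. Has2 shares 182 exon bases with its antisense gene Has2os, which had 1.15 and 0.54 TPM from 24 and 10 counts. Has3 shares 352 exon bases with Chtf8 on the opposite strand, a gene that had 66.9 and 42.9 TPM from 5039 and 2255 counts. Has3's own 21 and 7 counts are few beside that neighbour, and whether they lie in the shared bases was not tested.

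Ugdh makes UDP-glucuronic acid, the precursor that hyaluronan shares with chondroitin and heparan sulfate. It lies on chromosome 5 (ENSMUSG00000029201.10, 65413221 to 65435949) and had 67.5 and 75.6 TPM from 4473 and 3405 counts, a mean of 71.5 ± 5.70. It stood 38-fold above Has2, with log2 ratios of Has2 to Ugdh of -5.02 and -5.47. The mean log2 ratio was smaller as counts, -4.38, and as counts per annotated exon length, -3.71. Its main transcript, Ugdh-201, held 62.0% ± 0.636 of the gene's TPM, and transcripts no longer in the annotation release used here held 33.0% ± 3.75.

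Vcan (ENSMUSG00000021614.12, chromosome 13, 89655312 to 89742509) was the most abundant member, with 132 TPM from 26500 counts in replicate 1 and 127 TPM from 21647 counts in replicate 2. Its mean of 130 ± 3.34 TPM lay above 92.4% of detected protein-coding genes. It held 99.7% ± 0.0529 of the summed TPM of the lecticans, the family of hyaluronan-binding proteoglycans. Acan, the cartilage lectican, was at 0.25 ± 0.0566 TPM, and the brain lectican Bcan was listed at 0 counts in both libraries, for which a limit of 3 counts allows up to 0.0871 CPM in replicate 1 and 0.119 in replicate 2. Vcan exceeded Has2 68.9-fold, with log2 ratios of 5.99 and 6.23, and the mean log2 ratio was 7.0 as counts and 5.23 as counts per annotated exon length.

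Hapln1, the link protein that fastens versican to hyaluronan (ENSMUSG00000021613.8, chromosome 13, 89539796 to 89611652), had 52.3 TPM in replicate 1 and 73.4 in replicate 2, from 7392 and 7330 counts. Its mean was 62.8 ± 14.96 TPM, the widest SD of the members in TPM. It held 98.1% ± 0.43 of the TPM of the 4 link protein genes, with Hapln3 next at 1.05 ± 0.0424 TPM and Hapln2 listed at 0 counts in both. Vcan exceeded it 2.09-fold (log2 ratios 1.34 and 0.79), and the mean log2 ratio was 1.70 as counts and 0.41 as counts per annotated exon length. Hapln1 and Vcan are neighbours on opposite strands whose 3′ ends face each other across 43659 bases, so the abundant lectican and the abundant link protein gene lie side by side.

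Cd44, the hyaluronan receptor (ENSMUSG00000005087.13, chromosome 2, 102811141 to 102901665), had 18.2 and 21.3 TPM from 2129 and 1712 counts, a mean of 19.7 ± 2.19. It was 6.59-fold below Vcan, with log2 ratios of Vcan to Cd44 of 2.86 and 2.58, and a mean log2 ratio of 3.65 as counts. It stood above 56.1% of detected protein-coding genes, the member nearest to the middle of that distribution.

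Hyaluronan-cutting genes were led by Hyal2, a hyaluronidase anchored at the cell surface. Hyal2 (ENSMUSG00000010047.8, chromosome 9, 107567945 to 107572779) had 77.0 and 86.4 TPM from 3919 and 3117 counts, a mean of 81.7 ± 6.66. Hyal1, the lysosomal hyaluronidase (ENSMUSG00000010051.11, chromosome 9, 107576927 to 107581710), had 2.46 and 2.35 TPM from 179 and 114 counts. The pair, 4147 bases apart on the same strand, differed 33.9-fold (log2 ratios 4.97 and 5.20). Of Hyal1's annotated exon bases, 50.8% are shared with Naa80, an acetyltransferase gene at 11.5 and 9.08 TPM, so the division of reads between them is the estimate of the authors' model. With posterior mean TPM, Hyal1 was at 3.01 in replicate 1 and 3.08 in replicate 2, the opposite order of the libraries.

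Cemip, a protein needed for hyaluronan breakdown in skin fibroblasts (ENSMUSG00000052353.9, chromosome 7, 83932857 to 84086502), had 0.59 and 0.53 TPM from 93 and 55 counts. It lay 4.30-fold below Hyal1 and 146-fold below Hyal2 in TPM. As counts the mean log2 ratios were -0.998 to Hyal1 and -5.61 to Hyal2, and per annotated exon length they were -2.69 and -7.50. Retained-intron transcripts, which are not protein-coding, held 58.0% ± 1.22 of its TPM, and the coding transcript Cemip-201 held 42.0% ± 1.21. As counts, with no length correction, Cemip-201 held the larger part, 50.85 of 93 and 30.65 of 55. Single retained-intron models differed widely between the libraries: Cemip-202 held 2.42% and 34.4% of TPM, and Cemip-204 held 38.3% and 7.21%. The relative gene Cemip2, listed among the other breakdown genes under its former name Tmem2, was far higher at 53.8 and 72.0 TPM. Of the summed TPM of Hyal1, Hyal2, Hyal3, Cemip and Cemip2, Hyal2 held 55.5% ± 2.75 and Cemip2 42.4% ± 3.18. By counts, which are not length-corrected, the order was the opposite, with 27.6% and 24.5% for Hyal2 and 70.4% and 74.2% for Cemip2 in the single libraries.

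The most abundant synthase, Has2, was 43.4-fold below Hyal2 in TPM, with log2 ratios of -5.21 and -5.67, and mean log2 ratios of -4.22 as counts and -4.59 as counts per annotated exon length. With 1 added to each TPM, ratios with a scarce member were smaller: the mean log2 was -4.65 for Has2 to Ugdh, -4.84 for Has2 to Hyal2, 5.50 for Vcan to Has2, -1.13 for Cemip to Hyal1 and -5.73 for Cemip to Hyal2. All 10 ratios examined between members had the same direction in both libraries and exceeded their own SD, as the plot of ratios shows.

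**Figure D2:**
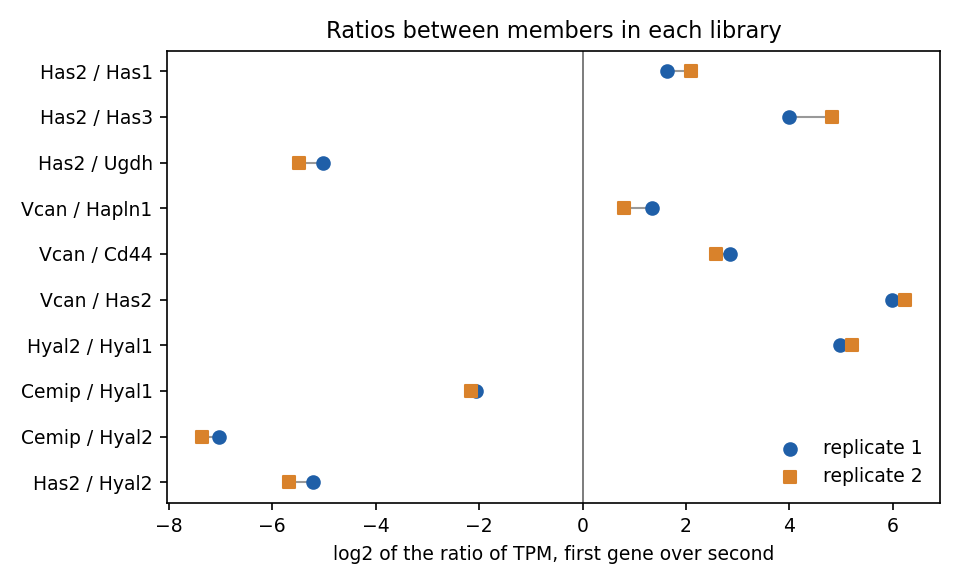
Log2 ratio of TPM for 10 pairs of members, first gene over second, in replicate 1 (circles) and replicate 2 (squares), with 0 marked as equality. No pair crosses 0, and the pair nearest to it is Vcan / Hapln1 at 1.34 and 0.79.

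The estimated forms of versican differed between the libraries more than the gene's level did. V0 held 35.3% of the gene's TPM in replicate 1 and 44.3% in replicate 2, a mean of 39.8% ± 6.34. V1 held 22.8% and 30.4%, a mean of 26.6% ± 5.37. V3, the short form without the chondroitin sulfate regions, held 31.0% and 17.6%, a mean of 24.3% ± 9.50. V2, the main form of adult brain, held 0.24% in replicate 1 and 0% in replicate 2, the lowest of the full-length forms. V0 was thus the most abundant in both libraries, while V1 and V3 changed places in this length-corrected share. As shares of the gene's counts, with no length correction, V0 held 61.9% and 64.7%, V1 26.6% and 29.6%, and V3 9.79% and 4.62%, so that V1 stood above V3 in both libraries.

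Forms that hold exon 8 made up 58.1% and 74.6% of Vcan TPM, and forms that hold exon 7 made up 35.6% and 44.3%. In TPM, V0 had 46.6 and 56.4, V1 had 30.04 and 38.7, and V3 had 40.9 and 22.4. The authors' counts behind V3 were 2595 in replicate 1 and 1001 in replicate 2, with posterior standard deviations of 83.7 and 77.1. The difference in V3 between the libraries was therefore larger than the uncertainty that the quantification model gives it.

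Annotated ends of these models differ, which matters for how reads are assigned. The sequence after the coding part is 1922 bases long in V0, 894 in V1, 589 in V2 and 178 in V3. All 13 exons of V3 lie within exons of V0, so the only bases particular to V3 in these 2 models are the junction of exon 6 and exon 9 printed above. The part of the model ends in the V3 share was not tested. A further 9.22% ± 2.04 of the TPM lay in the 5 other models of the gene.

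The direction of the gene's difference between the libraries depended on the length correction. As TPM, Vcan was slightly higher in replicate 1 (132 against 127). As counts scaled for library size, it was 1.12-fold higher in replicate 2. The gene length in the authors' tables, an average over the transcript mix, was 7132 bases in replicate 1 and 8540 in replicate 2, and TPM divides by a length of this kind.

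Cd44 was estimated as a mix of the standard form and forms with variable exons. The standard form held 35.9% and 41.9% of the gene's TPM, a mean of 38.9% ± 4.24. The form with 5 of the 10 variable exons (Cd44-207) held 61.8% and 56.3%, a mean of 59.0% ± 3.83. Of the other models with variable exons, the one that holds all 10 had 0.52% and 0.63%, one with 1 variable exon had 0.38% and 0.51%, and the rest were listed at 0. The 2 main forms kept their order in both libraries and their ranges did not overlap.

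In Cd44, too, the models end differently, with 2995 bases after the coding part in Cd44-207 and 1589 in the standard form, and all 9 exons of the standard form lie within exons of Cd44-207. Reads from the last part of the 3′ end can therefore be assigned to Cd44-207 and not to the standard form, whichever variable exons their molecule held. What this contributes to the share of Cd44-207 was not tested. The figure of models and shares draws these ends to scale.

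**Figure D3:**
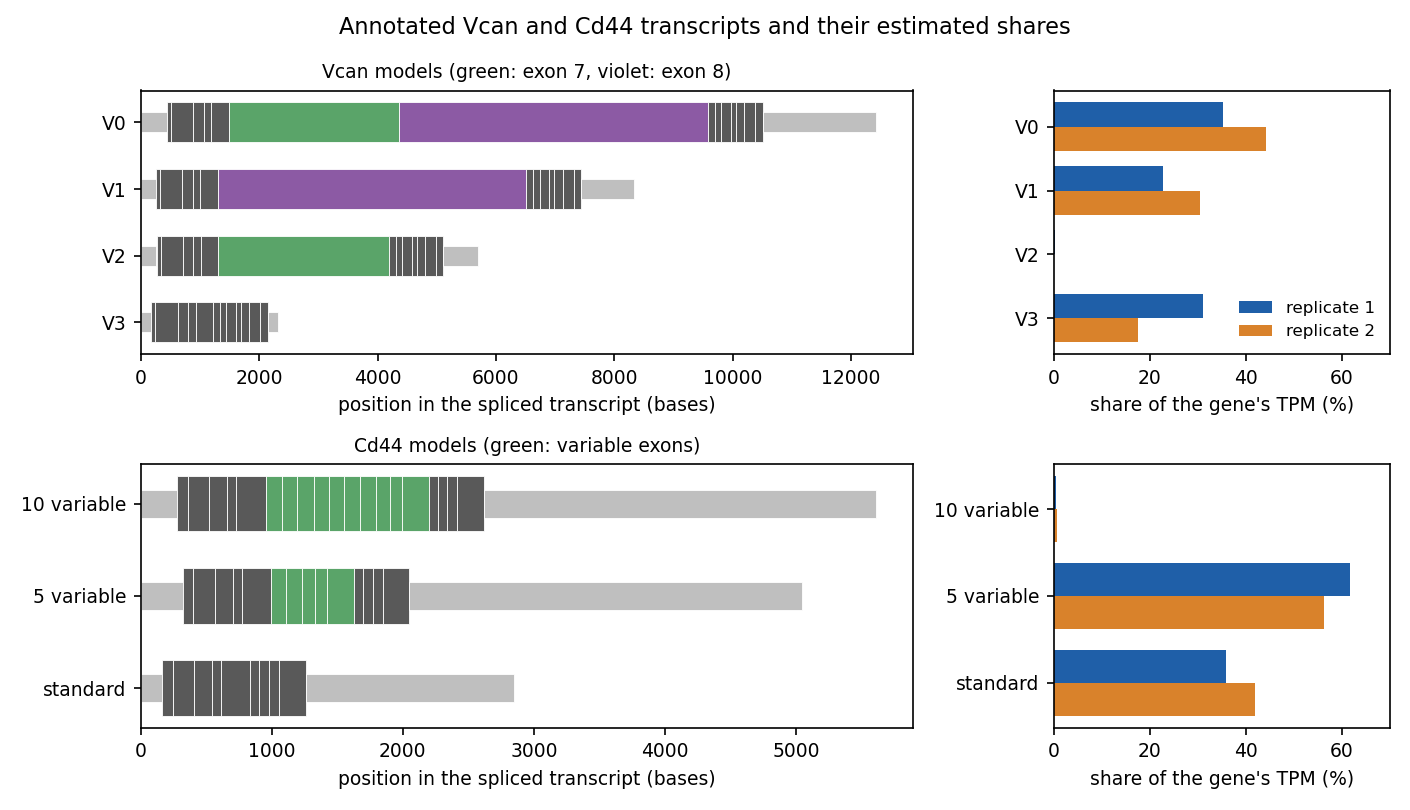
Left, annotated Vcan and Cd44 models to scale in bases of spliced transcript, with coding exons as tall boxes, untranslated parts as thin grey boxes, and the exons that differ in colour. Right, each model's share of the gene's TPM (percent) in replicate 1 and replicate 2, where V3 has 31.0% and 17.6% and V2 is near 0; the Cd44 forms are named by their number of variable exons.

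Between the libraries, counts were compared gene by gene with an exact two-sided binomial test on TMM-scaled counts, Benjamini-Hochberg adjusted over 16621 genes, which compares these 2 libraries and covers counting error alone. A gene was called where the adjusted p was below 0.05 and the fold at least 2, which held for 4.69% of genes and for none of the 10 members. At an unadjusted p under 0.05 there were 5 members, beside 46.5% of genes. At an adjusted p under 0.05 without the fold, 39.6% of genes passed, and so did 4 of the 10 members, near that share. These were Hapln1, Vcan, Cd44 and Hyal2, all higher in replicate 2 by scaled counts. The split by direction over all genes at this threshold was not examined.

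Hapln1 differed most among them, 1.36-fold higher in replicate 2 (log2 of replicate 1 over replicate 2 -0.44, adjusted p = 1.86e-74 by the exact binomial test). Vcan was 1.12-fold higher (adjusted p = 1.28e-32), Cd44 1.10-fold (adjusted p = 0.0103) and Hyal2 1.09-fold (adjusted p = 0.00167). The scarce members had higher scaled counts in replicate 1, Has3 2.09-fold (adjusted p = 0.163), Has1 1.70-fold (adjusted p = 0.146) and Has2 1.26-fold (adjusted p = 0.0649), and none of these passed. The median absolute log2 difference of the members was 0.25, beside 0.19 over all genes tested.

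**Figure D4:**
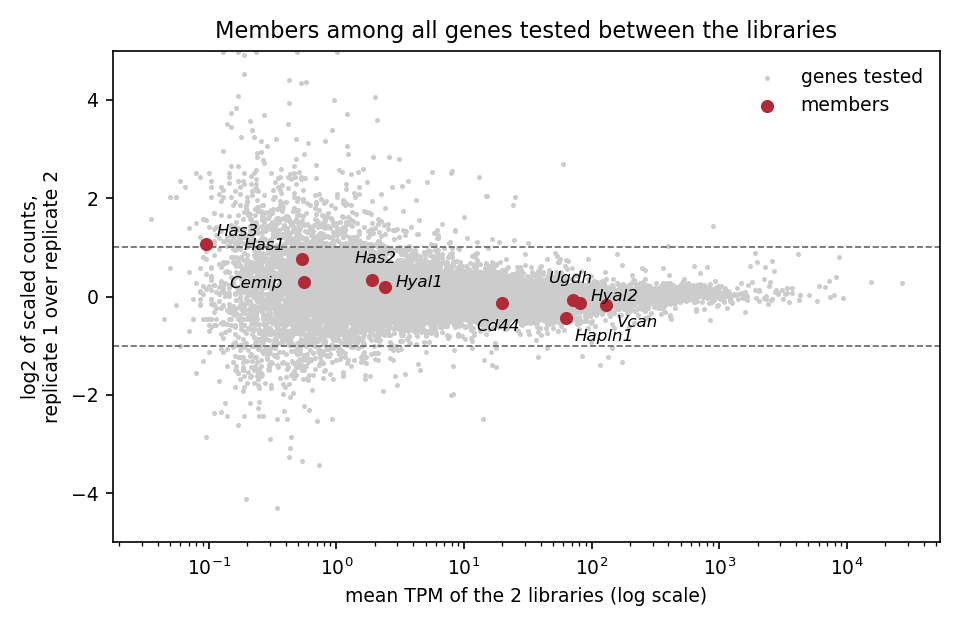
Log2 of TMM-scaled counts, replicate 1 over replicate 2, against mean TPM (log scale) for the genes tested (grey; 28 of 16621 lie beyond the axis limits of -5 and 5) and the 10 members (red), with dashed lines at a fold of 2. Has3 lies at the upper line with 21 and 7 counts and was not called, and Hapln1 is the abundant member farthest below 0 at -0.44.

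Of the other genes of the pathway, 72 in 7 lists, 53 were detected, 6 were listed at 0 counts in both libraries, and 61 could be tested between the libraries. Of the tested, 3 were called higher in replicate 1 and none higher in replicate 2, beside 3.32% and 1.37% of all genes tested. The lists had medians from 0.11 to 55.0 TPM, and the plot of the pathway lists shows every gene above 0.

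All 9 UDP-sugar supply genes were detected, their median being 19.7 TPM. Pgm1, a phosphoglucomutase, had 215 ± 16.8 TPM, Ugp2, which makes UDP-glucose, 145 ± 15.9, and Uap1, which makes UDP-N-acetylglucosamine, 46.5 ± 4.81. The lowest was Gfpt2, an entry enzyme of the hexosamine pathway, at 11.9 ± 2.38. None was called between the libraries.

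Among other hyaluronan-binding proteins and receptors, 10 of 14 were detected and the median level was 2.18 TPM. Hmmr, which also acts at the mitotic spindle, had 45.5 ± 2.14 TPM, Stab1, a scavenger receptor, 28.4 ± 2.50, and Layn 4.78 ± 1.11, while Itih4 had 0 and 1 counts. Called higher in replicate 1 were Itih2, a plasma inhibitor chain that binds hyaluronan covalently, with 387 and 39 counts (7.16-fold, adjusted p = 7.36e-50 by the exact binomial test), and Stab2, the hyaluronan clearance receptor of liver sinusoids, with 95 and 18 counts (3.77-fold, adjusted p = 2.91e-08). Liver markers moved with them: the summed TPM of Alb, Afp, Apoa1 and Ttr was 141 in replicate 1 and 24.2 in replicate 2, all 4 were called higher in replicate 1, and none was at 0. The part of liver RNA in the Itih2 and Stab2 differences was not tested.

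The other lecticans and link proteins were scarce: Hapln3 alone of 6 was detected, and the median was 0.11 TPM. Acan (0.25 ± 0.0566 TPM) and Hapln4 (0.125 ± 0.0354) followed, and Bcan and Hapln2 were the lowest at 0. Among other hyaluronan breakdown genes (median 5.53 TPM) 5 of 10 were detected. The highest were Cemip2 (62.9 ± 12.9), the lysosomal hexosaminidase gene Hexa (57.0 ± 5.76) and Gusb, the beta-glucuronidase (41.3 ± 6.53). Hyal4, Hyal5, Hyal6 and Spam1, the last a sperm hyaluronidase, were listed at 0 counts in both libraries.

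ADAMTS proteases that cut versican were detected in 6 of 6 cases, with a median of 3.20 TPM. Adamts1 led with 41.6 ± 10.3 TPM (34.2 and 48.9), followed by Adamts9 at 5.59 ± 1.70 and Adamts15 at 4.44 ± 1.17, and Adamts4 was lowest at 1.17 ± 0.0778. Adamts1 stood apart from the rest of its list in both libraries, and none was called between them.

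Chondroitin sulfate chain genes, whose products build the chains on versican, were detected in 17 of 21 cases at a median of 7.73 TPM. B3gat3, of the linkage region, had 24.9 ± 1.10 TPM, the polymerase gene Chsy1 18.6 ± 1.12 and the xylose kinase gene Fam20b 18.4 ± 2.77, and the sulfotransferase gene Chst13 was lowest at 0.21 ± 0.0283. Xylt1, which starts the chain, was the gene called here, with 85 and 27 counts (2.27-fold higher in replicate 1, adjusted p = 3.93e-04 by the exact binomial test). Of the versican-binding matrix genes, whose median was 55.0 TPM, 5 of 6 were detected. The highest were fibronectin Fn1 (261 ± 35.1) and the fibulins Fbln1 (114 ± 10.1) and Fbln2 (87.6 ± 16.2), while tenascin-R, Tnr, was lowest at 0.175 ± 0.0919.

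**Figure D5:**
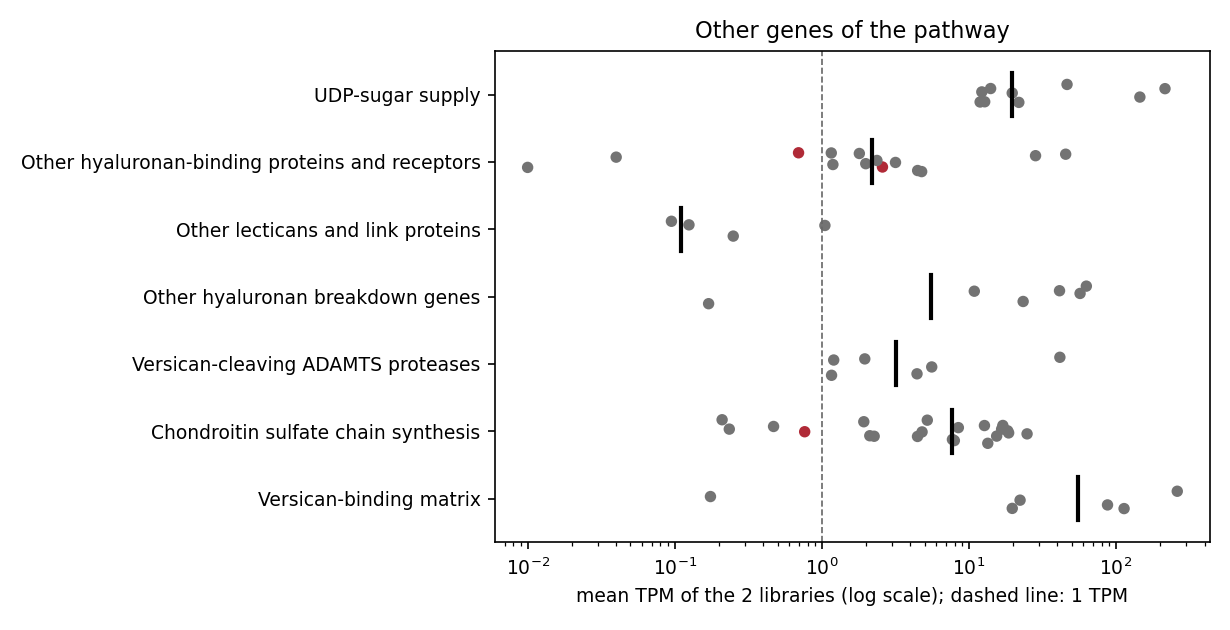
Mean TPM over both libraries (log scale) of each gene in 7 pathway lists, with black bars at list medians, red points for the 3 genes called between the libraries, and a dashed line at 1 TPM; vertical scatter within a list has no meaning, and the 6 genes at 0 are not drawn. Versican-binding matrix has the highest median (55.0) and the other lecticans and link proteins the lowest (0.11).

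The tissue label was checked against markers. All 5 heart muscle genes were detected at a median of 2898 TPM, as were all 5 endocardial (32.4), all 6 cushion mesenchyme (22.8) and all 5 epicardial markers (37.6). Blood markers had a median of 8288 TPM, macrophage markers 4.96, neuronal markers 5.13 and markers of lung and gut epithelium 2.15, of which Nkx2-1 was called 6.4-fold higher in replicate 1. Genes listed as cartilage markers had a median of 15.6, with Col2a1 at 46.5 and 59.5 TPM. Matn1, a marker of mature cartilage, had 1 and 11 counts. Cartilage cells also make Hapln1 and Vcan, but which cells of the heart samples held the Col2a1 RNA was not tested. Summed cartilage markers were lower in replicate 1 (60.2 against 77.4 TPM), the direction of Hapln1, and summed cushion markers were 215 and 214. This direction was not particular to cartilage. As ratios of sums, replicate 1 over replicate 2, cartilage had 0.777, endocardium 0.874, macrophages 0.892 and heart muscle 0.934. Epicardium (0.975) and neurons (0.984) were also slightly below equality. Cushion (1.01), blood (1.20), lung and gut epithelium (1.29) and liver (5.83) lay above it. The macrophage sum was mostly Lyz2 (49.7 against 57.9 TPM). Of the others, Csf1r (3.9 against 3.47) and C1qa (6.48 against 6.01) were higher in replicate 1, and Ptprc (0.83 against 0.9) lower. Median log2 ratios of scaled counts were negative for cartilage (-0.379), endocardium (-0.0997) and heart muscle (-0.0253). They were positive for macrophages (0.181), epicardium (0.0502) and neurons (0.00906), opposite to the ratios of their sums. Within the cushion list Tbx20 differed most in TPM and was higher in replicate 1 (56.9 against 45.4). Postn (96.9 against 105), Sox9 (31.3 against 32.75) and Prrx1 (6.66 against 7.16) were lower there. Twist1 (9.70 against 9.62) and Msx1 (13.67 against 13.55) were nearly equal. The part of these cell types in the Hapln1 difference was not tested.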

How the data were processed

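Gene and transcript quantifications came as separate tables per library. The deposited columns, per the file headers, are expected counts (not normalized), TPM and, for each transcript, its percent of the gene's TPM. The deposited texts name mm10 and annotation M4; the sources used here give no aligner, quantifier, version or strand setting. Per the labels, 10 ng of RNA above a size of 200 (no unit given), with spike-ins, went into each library. Spike-in rows held 16.0% and 17.1% of TPM. Mouse genes held 34447169 and 25261719 counts, and non-mouse rows (97 spike-ins, 26248 tRNAs) stayed out of tests.

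Symbols and exons came by gene identifier from GENCODE M21 on the same assembly, which matched 98.0% of genes. Vcan and Cd44 transcripts have the same lengths in both releases. Rounded expected counts were scaled by TMM (edgeR 4.0.16, R 4.3.3). Genes with a summed count of 20 or more were compared by the exact binomial test (scipy 1.17.1), with 0.5 added to counts for folds. On simulated libraries of 16621 genes with counting noise alone, the test called 90 of 100 genes with a true fold of 3, 96 of 100 with a true fold of 5, and 0 without a change. Intervals and limits cover counting error only.

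The members and lists were chosen with earlier results of these data known. All members are named; from each list the 3 highest, the lowest and any gene called are named, as are Has2os, Chtf8, Naa80 and a few others chosen after their values were seen. Tmem2 was matched to Cemip2 through RefSeq synonyms. No pattern likeness was ranked, since 2 libraries of 1 group give none. Alternatives were posterior means, rescaling, pseudocount, length correction, thresholds, DESeq2 1.42.0 size factors and each library alone. Promoter sequences were not used here.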

Additional observations from a re-analysis of the deposited data

How the results depend on the processing

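Each of the 10 ratios between members kept its sign under the alternatives run, and each of the 40 member results of the library comparison on scaled counts, over its alternatives, kept its direction and its side of the threshold. Among other orders that turned with the measure were Vcan between the libraries (TPM against scaled counts) and Hyal1 between the libraries (TPM against posterior mean TPM). Hyal2 against Cemip2, and V3 against V1 in replicate 1, turned between TPM and counts. So did the order of Hyal2, Ugdh and Hapln1, and that of Hyal1 and Has2. Rescaling TPM over mouse genes multiplied every gene by 1.19 in replicate 1 and 1.21 in replicate 2. Hapln1 (75.4), Has1 (0.64) and Has3 (0.114) rose by these factors too, but by less than their spread between the libraries. The values below moved by more than that spread. With TPM rescaled over mouse genes alone, means were 2.26 for Has2, 85.7 for Ugdh, 155 for Vcan, 23.7 for Cd44, 2.88 for Hyal1, 98.0 for Hyal2 and 0.671 for Cemip. With posterior mean TPM they were 0.175 for Has3, 3.04 for Hyal1 and 0.645 for Cemip, and log2 ratios were 3.43 for Has2 to Has3, 4.73 for Hyal2 to Hyal1 and -2.24 for Cemip to Hyal1.

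With 1 added to each TPM, log2 ratios were 0.92 for Has2 to Has1, 1.40 for Has2 to Has3, -4.65 for Has2 to Ugdh, -4.84 for Has2 to Hyal2, 5.50 for Vcan to Has2, 4.60 for Hyal2 to Hyal1, -1.13 for Cemip to Hyal1 and -5.73 for Cemip to Hyal2. As counts with no length correction they were 2.92 for Has2 to Has1, -4.38 for Has2 to Ugdh, -4.22 for Has2 to Hyal2, 1.70 for Vcan to Hapln1, 3.65 for Vcan to Cd44, 7.0 for Vcan to Has2, 4.61 for Hyal2 to Hyal1, -0.998 for Cemip to Hyal1 and -5.61 for Cemip to Hyal2. As counts per annotated exon length they were 3.01 for Has2 to Has1, -3.71 for Has2 to Ugdh, -4.59 for Has2 to Hyal2, 0.41 for Vcan to Hapln1, 5.23 for Vcan to Has2, 4.81 for Hyal2 to Hyal1, -2.69 for Cemip to Hyal1 and -7.50 for Cemip to Hyal2.

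Genes called higher in replicate 1 numbered 552, and 1020 at a fold of 1.5. Those higher in replicate 2 numbered 227, 478 at a fold of 1.5 and 414 with no filter on low counts. The cause of these changes was not tested beyond the settings themselves. No paired analysis was possible because the design has 1 group. Counts limit the scarce members most: Has3 rests on 21 and 7 counts and Has1 on 38 and 16.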
